A study of Bos taurus with 12 samples.

Results

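The miRNAs described here are bta-miR-320a, bta-miR-484, bta-miR-877 and bta-miR-1224, named below without the prefix for Bos taurus. They are 4 of the 783 bovine miRNAs listed for extracellular vesicles (EVs) of heifer plasma. They were chosen by name, because their precursors are known to be made without Drosha, and miR-877 was chosen also for its values in superstimulated high responders. EVs are membrane-bound particles that cells release into blood. Plasma was collected on Day 7 in 2 successive estrous cycles, the first unstimulated (U) and the next superstimulated (S), from 6 Charolais- and Limousin-cross beef heifers. Their ovulatory response to superstimulation was high (H) in 3 and low (L) in the other 3, so that SH, SL, UH and UL have 3 libraries each, and EV RNA was isolated with a spin column kit. All heifers were synchronized. S libraries followed a course of follicle-stimulating hormone in decreasing doses with prostaglandin, then artificial insemination, and U libraries of the same heifers preceded it, so treatment and order of sampling cannot be told apart. H and L heifers were picked from a larger herd by the corpora lutea counted at slaughter in the S cycle. The labels give no age. Libraries that share a number within H or within L were taken to come from the same heifer.

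Most miRNAs are cut from a long primary transcript in the nucleus by the Microprocessor, which contains the RNase Drosha, and then by Dicer in the cytoplasm. Mirtrons leave out the first cut, because the splicing machinery excises a short intron that folds into a hairpin once it is debranched, and the 5′ end of the 5p product is then the 5′ splice site. miR-877 and miR-1224 are mirtrons conserved among mammals. miR-320 is the model for another route, in which transcription starts at the hairpin itself, the capped precursor is exported by exportin 1 and Dicer releases mainly the 3p arm. miR-484 is counted with it among the miRNAs that need Dicer but not Drosha. Both routes join the common pathway at Dicer and Argonaute.

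The mature sequences are shown because the first bases bear on the mirtron route and the seed, which pairs with target mRNAs, groups related miRNAs. They are given 5′ to 3′ as deposited, with T for U and the seed (bases 2 to 8) in capitals:
miR-320a: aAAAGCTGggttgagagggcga
miR-484: tCAGGCTCagtcccctcccgat
miR-877: gTAGAGGAgatggcgcaggg
miR-1224: gTGAGGACtcgggaggtggag

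Both mirtrons began with GT, the usual first bases of an intron, and neither miR-320a nor miR-484 did. Of all 783 listed miRNAs, 34 (4.34%) began with GT, and of the 238 detected in at least 1 group, 5 (2.1%) did, which were miR-145, miR-2448-3p, miR-2478, miR-877 and miR-1224. The GC content was 54.5% for miR-320a, 63.6% for miR-484, 65.0% for miR-877 and 66.7% for miR-1224, against a median of 47.6% among the detected miRNAs. Of these, 91.6% had a lower GC content than miR-877 and 92.4% a lower one than miR-1224. G alone made up 55.0% of miR-877 and 57.1% of miR-1224. The 4 seeds differed from each other, and 0 other miRNAs in the list carried any of them.

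A relative by name is miR-320b, which shares a run of 16 bases with miR-320a, given here in capitals, with an offset that moves the seed:
miR-320a: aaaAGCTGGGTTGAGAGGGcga
miR-320b: AGCTGGGTTGAGAGGGtggt
Over the 12 libraries 4 reads were assigned to miR-320b and 1732 to miR-320a.

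In the RefSeq annotation of the bovine assembly ARS-UCD2.0, the gene of miR-877 lies within the span of ABCF1, which encodes an ABC-family protein active in translation initiation, and that of miR-1224 within VWA5B2. The gene of miR-484 lies between MARF1 and NDE1. miR-320a has 2 genes, one next to POLR3D, a subunit gene of RNA polymerase III, and one within RNF180, and their reads cannot be told apart. Reads had been mapped to another assembly, UMD3.1, so no positions are given.

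Known miRNA reads, collapsed by unique molecular identifier (UMI) and calculated back from the deposited values, numbered 21466 in SH2, the shallowest library, 77433 in SH3, the deepest, and 41190 at the median. Levels are given as reads and as normalized reads, which are reads scaled with trimmed mean of M-values (TMM) factors to the mean depth of the 12 libraries. As a check of the labelled source, miRNAs typical of blood cells, endothelium and liver were all present. Summed over miR-451, miR-144 and miR-486, which are made in red cell precursors, SH3 stood apart with 8438.2 normalized reads against 991.3 to 2781.5 in the 11 other libraries. By miR-451 alone SH3 did not stand apart, with 43.8 normalized reads there and 45.6 in UL1. Muscle miRNAs (miR-1, miR-133a and miR-206) stood apart in UL1 with 1717.0 against at most 164.2 elsewhere. For miR-484 and miR-877, fold changes and ratios that involve SH are therefore given with and without SH3. RNA released in more vesicles and more RNA per vesicle cannot be told apart.

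The 4 miRNAs differed widely in level. Their means over the 12 libraries were 142.0 normalized reads for miR-320a, 8.7 for miR-484, 1.9 for miR-877 and 0.9 for miR-1224, which ranked 38, 112, 164 and 200 among the 238 detected miRNAs. miR-320a took 0.324% of all known miRNA reads and miR-484 0.0215%. miR-320a had more reads than miR-484, and miR-484 more than either mirtron, in each of the 12 libraries. miR-877 exceeded miR-1224 in 4 libraries, equalled it in 5 and was below it in 3. Summed over the libraries, miR-877 had 23 reads and miR-1224 had 10. The mature forms are 20 to 22 bases long, so a read stands for about the same length in each.

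**Figure D1:**
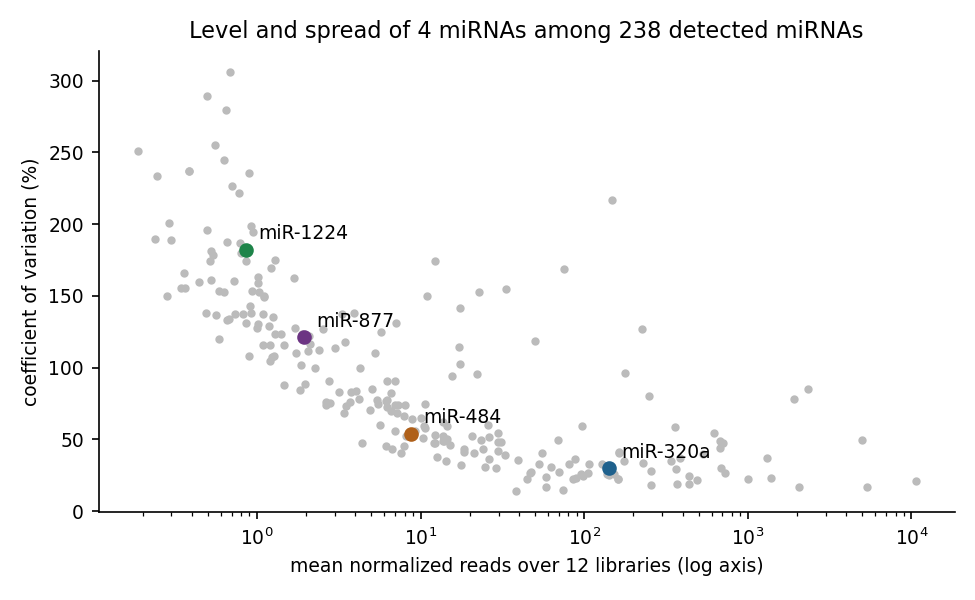
Mean normalized reads over the 12 libraries (log axis) and coefficient of variation in percent for the 238 detected miRNAs (grey) with the 4 Drosha-independent miRNAs in colour. miR-320a lies in the upper part of the range with a coefficient of variation of 29.8%, while miR-877 (121%) and miR-1224 (182%) lie among the scarce miRNAs, where values spread most.

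The spread between libraries was that of miRNAs of like level. The coefficient of variation of miR-320a was 29.8% against a median of 32.8% for the 20 miRNAs nearest to it in level, and that of miR-484 was 53.8% against 64.6%. For miR-877 the values were 121% and 112%, and for miR-1224 182% and 156%.

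miR-877 had 3, 3 and 10 reads in SH1, SH2 and SH3. It had 0, 0 and 3 reads in UL, 1, 2 and 0 in UH and 0, 1 and 0 in SL. Every SH library thus had at least 3 reads, and of the 9 others only UL3 had as many. Scaled to depth, SH held 5.4 ± 1.2 normalized reads, SL 0.3 ± 0.6, UH 1.0 ± 0.8 and UL 1.0 ± 1.7 (SD, n = 3 in every group). The lowest SH library (SH1, 4.1) was above the highest of the others (UL3, 3.0). The other 3 groups could not be placed in an order, since the groups overlapped in every pair and differed by less than the larger SD of the pair. These SH values are part of the reason why miR-877 was chosen, so they are a description and were not tested against the other groups.

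**Figure D2:**
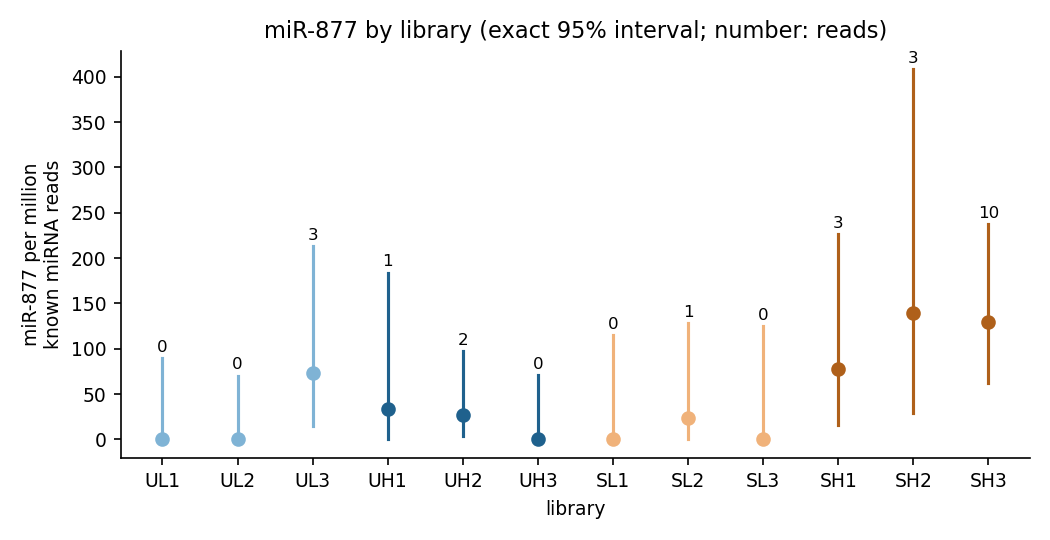
miR-877 per 1000000 known miRNA reads in each library (points) with exact (Clopper-Pearson) 95% intervals, which cover counting error only, and the number of reads above each interval. The SH points lie between 77.5 and 139.8 and the 9 others between 0 and 72.8, but the intervals of SH1 and UL3 overlap almost entirely.

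Pooled over the 3 libraries, miR-877 made up 116.3 per 1000000 known miRNA reads in SH (exact 95% interval 66.5 to 188.8), 19.2 in UH (3.9 to 56.0), 9.5 in SL (0.2 to 53.0) and 22.2 in UL (4.6 to 65.0). The ratios of these shares restate the values for which miR-877 was chosen, so an interval that leaves out 1 is no test. The SH share was 12.2 times that of SL (95% counting interval 1.9 to 512), where a single read was found, 6.07 times that of UH (1.74 to 32.5) and 5.23 times that of UL (1.5 to 28.0). SH3, the deepest library, gave 10 of the 16 SH reads. Without it the ratios were 10.5 to SL (1.27 to 482), 5.21 to UH (1.11 to 32.2) and 4.48 to UL (0.958 to 27.7), a choice made after the data were seen. Against the 9 other libraries together, which held 7 reads, the ratio was 6.59 (2.56 to 18.9) with SH3 and 5.65 (1.57 to 19.6) without it. These intervals treat reads as independent molecules and leave out the spread between heifers. In the 5 libraries with 0 reads, a limit of 3 reads stands for 57.2 to 101.7 per 1000000, so the share in SH1, 77.5, lay within what depth leaves undetected in some of them.

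Of the 238 detected miRNAs, only 1 (0.42%), miR-877 itself, was higher in each SH library than in all 9 other libraries. For SH against SL alone, the share of tested miRNAs with every SH library above every SL library was 3.98%, and for SH against UH it was 1.89%. Nothing is read from these shares for miR-877, which was chosen for this pattern. The order held when reads were scaled by total reads (SH at least 3.5, others at most 3.2), by median of ratios (4.0 and 2.9) or left as deposited tags per 1000000 mapped reads (20 and 15). All 3 H heifers had more miR-877 in the S than in the U cycle, by 1.03, 1.54 and 2.82 on the log2 scale of normalized reads + 1. Of the L heifers, L2 was higher by 1.0, L1 had 0 reads in both cycles and L3 went from 3 reads to 0. Red cell miRNAs summed to 1773.7 normalized reads in SH1, 2272.9 in SH2 and 8438.2 in SH3, and their part in the miR-877 values was not tested.

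miR-877 was tested between UH and UL only, where the log2 fold change came to 0.20 (standard error 0.69, 95% interval -1.26 to 1.66, adjusted P = 0.98 from limma). In SL and UL it had a read in 1 library each and missed the minimum for a test, which asked that 2 of the 3 libraries of either group hold a read. It entered UH vs. UL only through UH, where 2 libraries held a read.

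miR-1224, the other mirtron, did not share the values of miR-877. It had 4, 0 and 0 reads in SH, 0, 1 and 0 in SL, 0, 2 and 2 in UH and 0, 1 and 0 in UL. Its highest library, SH1 with 5.4 normalized reads, was thus an SH library, but SH2 and SH3 had 0 reads. No group was separated from another. Pooled shares were 29.1 per 1000000 known miRNA reads in SH (7.9 to 74.4), 9.5 in SL (0.2 to 53.0), 25.5 in UH (7.0 to 65.4) and 7.4 in UL (0.2 to 41.3), with intervals that overlapped throughout. UH vs. UL gave a log2 fold change of 0.56 (adjusted P = 0.93 from limma, standard error 0.60), and SH vs. UH gave 0.02 (standard error 0.78, adjusted P = 0.99 from limma). miR-1224 entered these fits, and those over all 12 libraries, only through UH, the only group with a read in 2 libraries. Nothing is therefore read from these values. In SH and in SL only 1 library had a read, so SH vs. SL was not tested, nor was SL vs. UL. Single libraries moved both fold changes. UH vs. UL was 1.0 without UH1, which had 0 reads (adjusted P = 0.794 from limma), and SH vs. UH turned to -0.87 without SH1. Over the 12 libraries Spearman's rho between both mirtrons was -0.08, a description only, since 5 libraries had a read of miR-1224 and 7 of miR-877.

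**Figure D3:**
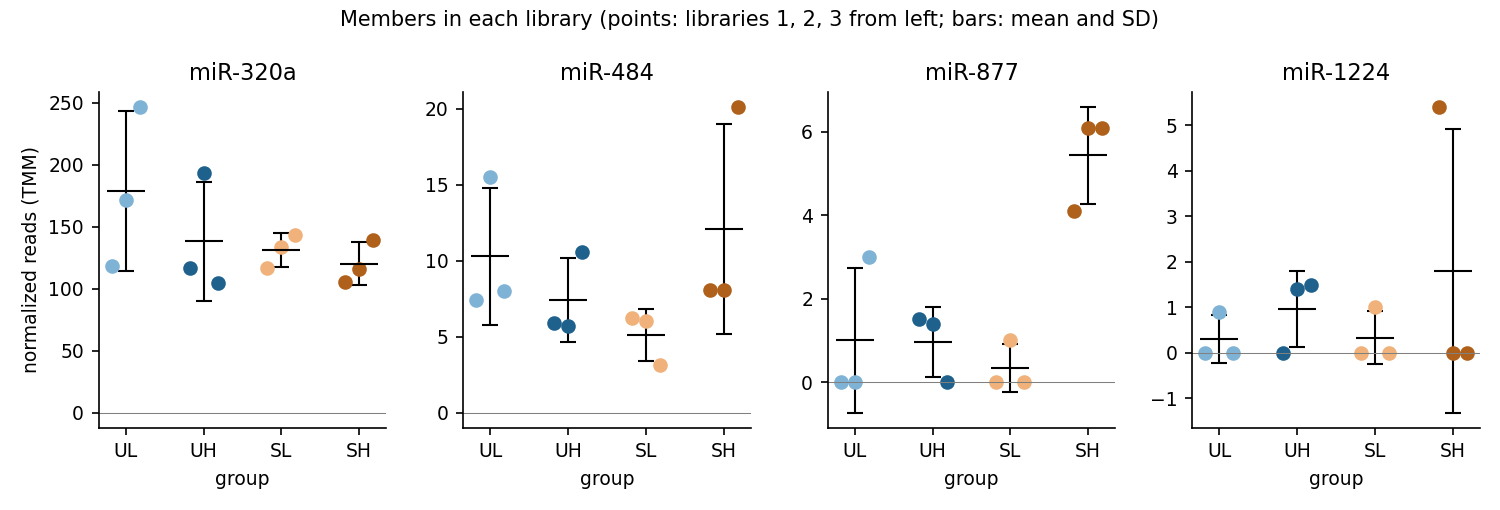
Normalized reads of the 4 miRNAs in each library (points, libraries 1 to 3 from left) with group mean and SD (bars), on a separate linear axis for each miRNA. In the miR-877 panel all SH points (4.1 to 6.1) lie above the rest, in the miR-484 panel SH lies above SL, and in the miR-320a panel the S groups are more compact than the U groups.

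miR-484 was higher in the S than in the U cycle in every H heifer and lower in every L heifer. It had 6, 4 and 33 reads in SH, 5, 6 and 2 in SL, 4, 8 and 14 in UH and 8, 17 and 8 in UL. In normalized reads the groups stood at 12.1 ± 6.9 in SH, 10.3 ± 4.5 in UL, 7.4 ± 2.8 in UH and 5.1 ± 1.7 in SL (SD, n = 3). Every SH library (8.1, 8.1 and 20.1) was above every SL library (6.2, 6.0 and 3.1), and every SL library was below every UL library (7.4, 15.5 and 8.0). SH overlapped UL and UH, and UH overlapped UL and SL. Neighbours in this order differed by less than their larger SD.

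For miR-484, SH vs. SL gave a log2 fold change of 1.03 (standard error 0.70, 95% interval -0.51 to 2.57, adjusted P = 0.694 from limma) and SL vs. UL one of -0.87 (standard error 0.61, 95% interval -2.21 to 0.47, adjusted P = 0.701 from limma). Neither was called, since a call needed a log2 fold change of 1 or more in size together with an unadjusted P value not above the threshold of 0.05. The groups did not overlap for 8.96% of all miRNAs tested for SH vs. SL and for 7.94% of those tested for SL vs. UL, which is close to the 7.49% for UH vs. UL and the 7.55% for SH vs. UH. SH3 had the most miR-484 and the highest sum of red cell miRNAs, though not the most miR-451. Without it the log2 fold change for SH vs. SL was 0.63 (standard error 0.71). The part of red cell RNA in this value was not tested. UH vs. UL gave -0.40 (standard error 0.63, adjusted P = 0.93 from limma) and SH vs. UH gave 0.56 (standard error 0.78, adjusted P = 0.881 from limma). The first was -0.09 without UL2 and the second 0.16 without SH3. These comparisons share groups and are not independent of each other.

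Within heifers, miR-484 was higher in the S cycle in H1, H2 and H3, by 0.40, 0.43 and 0.86 on the log2 scale, and lower in L1, L2 and L3, with differences of -0.23, -1.24 and -1.12. Of the 238 detected miRNAs, 5 (2.1%) were likewise higher in every H and lower in every L heifer, and 9 (3.78%) had one sign in all H heifers and the opposite one in all L heifers. The 5 were miR-484, miR-29c, miR-185, miR-204 and miR-423-5p. The difference between the changes, (SH - UH) - (SL - UL), came to 1.43 (standard error 0.93, 95% interval -0.52 to 3.38) and was not called (adjusted P = 0.847 from limma). It was 1.03 without SH3.

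**Figure D4:**
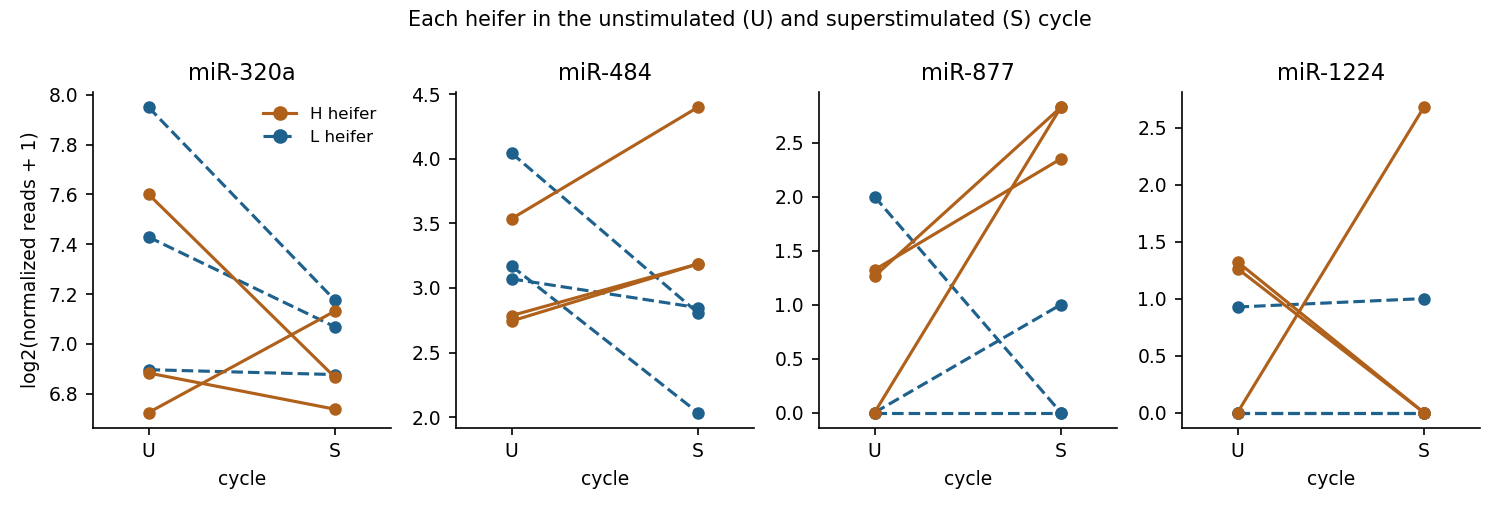
log2(normalized reads + 1) of each miRNA in the U and the S cycle, with a line for each H heifer (solid) and each L heifer (dashed) and a separate axis for each miRNA. For miR-484 the 3 H lines slope up and the 3 L lines down, for miR-877 the 3 H lines slope up, and for miR-320a 5 of the 6 lines slope down.

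miR-320a was the steadiest of the 4 and had the most reads of them in every library. Its counting error was not small in the libraries with fewest reads, such as SH2 with 57. The part of counting error in the spread within groups and in the differences between them was not tested. It had 78, 57 and 229 reads in SH, 94, 134 and 92 in SL, 79, 269 and 138 in UH and 127, 188 and 247 in UL. In descending order, UL held 178.6 ± 64.4 normalized reads, UH 138.3 ± 47.9, SL 131.1 ± 13.6 and SH 120.2 ± 17.2 (SD, n = 3). The groups overlapped in every pair, and neighbours in this order differed by less than their larger SD. The coefficient of variation was 36.1% in UL and 34.6% in UH, against 10.4% in SL and 14.3% in SH. The highest libraries, UL3 (246.3), UH2 (193.1) and UL2 (171.3), were all of the U cycle. The difference in spread was not tested.

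None of the comparisons between groups of miR-320a was called. SL vs. UL gave a log2 fold change of -0.39 (adjusted P = 0.701 from limma, standard error 0.28) and UH vs. UL one of -0.36 (standard error 0.33, adjusted P = 0.93 from limma). SH vs. SL gave -0.13 (standard error 0.33, adjusted P = 0.883 from limma) and SH vs. UH -0.16 (standard error 0.43, adjusted P = 0.922 from limma). Their 95% intervals reached from -1.06 to 0.75 at the widest, for SH vs. UH, and were narrower than those of the 3 scarcer miRNAs. Single libraries moved these values. SL vs. UL was -0.65 without UL1 (adjusted P = 0.535 from limma, 0.0304 before adjustment) and -0.12 without UL3, and UH vs. UL was -0.62 without UL1 and -0.09 without UL3. SH vs. UH turned to 0.11 without UH2.

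miR-320a was lower in the S than in the U cycle in 5 of 6 heifers, all but H3, with differences from -0.78 in L3 to 0.41 in H3. Of the 238 detected miRNAs, 11.3% were lower in at least 5 of 6 heifers. Over all heifers, with the response group as a covariate, the log2 fold change for S vs. U was -0.27 (standard error 0.24, adjusted P = 0.708 from limma), beside a median of -0.13 over all miRNAs tested. An exact sign-flip permutation test of the 6 differences gave a two-sided p of 0.219 for miR-320a and 0.719 for miR-484. The smallest p that 6 heifers allow is 0.0312. For miR-1224 the test gave 0.875, but its smallest possible p was larger, because L1 and L3 had a difference of 0. Nothing is read from the miR-1224 test. For miR-484 the log2 fold change was -0.15 (standard error 0.48), or -0.41 without SH3, and for miR-1224 0.02 (standard error 0.47). miR-877, described above, had 2.9 ± 2.9 normalized reads in the S and 1.0 ± 1.2 in the U cycle (SD, 6 libraries each).

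**Figure D5:**
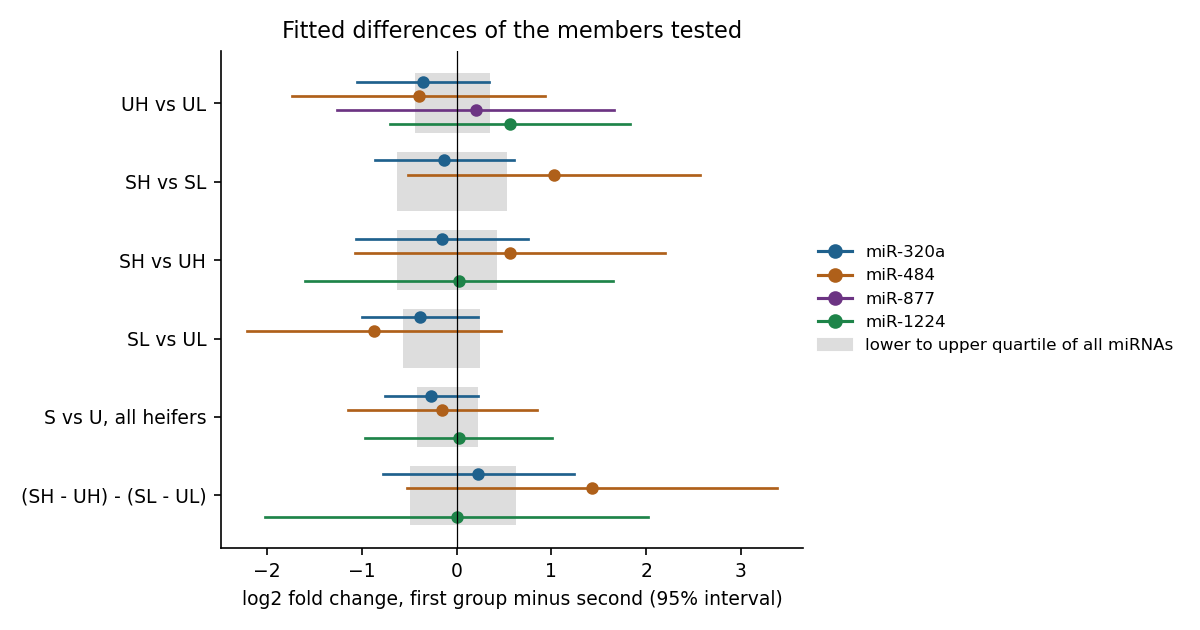
log2 fold change, first group minus second, with its 95% interval from limma for each miRNA that was tested in a comparison, and the range from lower to upper quartile of all miRNAs tested (grey band). All intervals include 0, and the points furthest from 0 are those of miR-484 for (SH - UH) - (SL - UL), SH vs. SL and SL vs. UL.

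Leaving out the miR-877 values for which it was chosen, 0 of 4 members tested for UH vs. UL were called, 0 of 2 for SH vs. SL, 0 of 3 for SH vs. UH and 0 of 2 for SL vs. UL. Also 0 of 3 were called for S vs. U over all heifers and 0 of 3 for the difference between the changes. By limma, the only tool run, with all libraries 0 of these members reached the threshold of 0.05 before adjustment, against 4.21% of all miRNAs for SL vs. UL and 7.98% for S vs. U. The share called among all miRNAs tested was 2.64% for UH vs. UL, 5.47% for SH vs. SL, 5.66% for SH vs. UH, 2.34% for SL vs. UL, 5.46% for S vs. U and 5.04% for the difference between the changes. Among so few members, 0 calls does not set them apart from the rest. The counts include miR-877 for UH vs. UL, and miR-1224 for all comparisons but SH vs. SL and SL vs. UL. Both entered only through UH, so nothing is read from their part in the counts. After Benjamini-Hochberg adjustment, 0 of all miRNAs were under 0.05 in any of the 6 comparisons.

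Other miRNAs with an unusual origin were looked up from a list of 14 names, made up of miR-320b, mirtrons, miRNAs hosted by small nucleolar RNAs (snoRNAs) and miR-451, which Drosha makes but which Argonaute 2 cuts in place of Dicer. Of these, 6 were listed in the data under the name used and 4 had a read. The mirtron miR-1225-3p had 0 reads in all 12 libraries. miR-664b, which is snoRNA-derived, had 68 reads in 11 libraries, with 9.8 ± 6.6 normalized reads in SH, 7.2 ± 4.8 in SL, 4.7 ± 4.0 in UH and 3.2 ± 2.3 in UL (SD over 3 libraries). The groups overlapped, and the log2 fold change for S vs. U was 1.09 (standard error 0.64, adjusted P = 0.708 from limma). miR-1291, also of snoRNA origin, had 5 reads in SL1, 1 in SL3 and 0 elsewhere. miR-451 had 6 to 72 reads, with 31.1 ± 12.8 normalized reads in SH, 20.6 ± 16.3 in SL, 21.9 ± 15.9 in UH and 31.3 ± 13.1 in UL. Of the relatives that could be tested, 2 to 4 in each comparison, 0 were called in either direction.

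No close likeness was seen between the 4 miRNAs. Spearman's rho over the 12 libraries was -0.24 for miR-320a with miR-484, -0.04 for miR-320a with miR-877 and 0.25 for miR-484 with miR-877. With miR-1224 it was -0.24 for miR-320a and 0.18 for miR-484. The few reads of miR-877 and miR-1224 limit what these values can show. Among miRNAs averaging 10 or more reads, the one most like miR-320a was miR-23a (rho 0.80), before miR-125a and miR-23b-3p (0.71 each). miR-484 was most like miR-185 (0.71), then miR-486 and miR-29c (0.64 each). For miR-877 the list was led by miR-107 (0.66), with miR-27b (0.50) and let-7g (0.46) behind it. These are descriptions over libraries that share a scaling, picked as the highest of 106 or 107 values each, and miR-185 and miR-29c share with miR-484 also the opposite changes in H and L heifers named above.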

How the data were processed

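The 12 libraries were grouped by the labels for treatment and ovarian response. The authors extracted adapters and UMIs with Cutadapt, mapped UMI-collapsed reads to UMD3.1 with Bowtie2 2.2.2, used perfect matches for miRBase annotation and tested with edgeR after TMM scaling. The deposited values are a score, in which the authors scaled tags to 1000000 mapped reads and dropped the decimals. Each was the whole part of a read count times a step of the library (4.4784 to 7.9343), and the reads calculated back gave all 9396 deposited values again. The number of columns left unused was 0.

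TMM factors (30% M and 5% A trim) were computed with code written from the published description. The fits were made in R 4.3.3 by limma 3.58.1 with a mean-variance trend, on log2 of normalized reads plus a pseudocount of 1. A miRNA entered a fit when 2 of the 3 libraries of either group held a read. Tests were two-sided, with only the groups compared in a fit (all 12 libraries for S vs. U and for the difference between changes). The pseudocount makes fold changes of scarce miRNAs too small. P values were adjusted (Benjamini-Hochberg) over all miRNAs tested. A test for raw counts had been planned in case counts were deposited and was not used on this unit. Fits were tested on simulated data, where recovery of changed miRNAs was scored only at a mean of 10 reads or more. That leaves out levels as low as those of miR-484, miR-877 and miR-1224. Tables, intervals and figures were made in Python 3.11.15 (numpy 2.4.6, scipy 1.17.1, pandas 2.3.3, matplotlib 3.10.9).

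The named miRNAs were the 4 members, the list of relatives, sharers of a seed and, for members with a read in at least 6 libraries, the 3 miRNAs with the highest rho. Members, lists and tests were chosen with earlier results of these data known. The pairing of U and S libraries rests on the shared heifers and library numbers. Over 238 miRNAs, correlations of deviations from group means were 0.05, 0.21 and 0.13 in H and 0.10, 0.06 and -0.05 in L heifers. Libraries with the same number from different heifers gave 0.19, 0.13 and -0.01 for SH with SL, and -0.03, 0.01 and -0.03 for UH with UL. Since those of SH with SL were in the range found within heifers, the correlations do not bear the pairing out, and it rests on the design alone. Counts of all 12 pairs of replicates differed by more than sampling noise (chi-square), so each library counted once. Intervals of shares and of their ratios cover counting error only, and those of log2 fold changes rest on the spread between libraries. Alternatives were other size factors, deposited tags, other filters and pseudocounts, no trend and all 4 groups in a fit. Further ones were a replicate block and leaving out each library. The block was the heifer for comparisons between cycles and for the difference between changes. For UH vs. UL and SH vs. SL it joined different heifers with the same number.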

Additional observations from a re-analysis of the deposited data

Results flagged for a closer look

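miR-484 was flagged because its change between cycles had opposite signs in H and L heifers. Of the 238 detected miRNAs, 9 (3.78%) had such opposite signs and 5 (2.1%) had them in the direction of miR-484, so the trait is not particular to it. All 3 H heifers were higher and all 3 L heifers lower in the S cycle, with a mean difference between the changes of 1.43 on the log2 scale. The test of that difference gave an adjusted P of 0.847 from limma (0.141 before adjustment). Over 20 alternatives the value ranged from 1.03 without SH3 to 1.68 without UH3, with adjusted P values from 0.581 to 1. The lowest P from limma before adjustment was 0.0557, without the mean-variance trend.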

How the results depend on the processing

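The number of tested members called was 0 in each of the 6 comparisons under all alternatives that could test a member, and miR-877 and miR-1224 were left untested with a minimum of 10 reads. With the replicate block, the log2 fold change of miR-484 for SL vs. UL was -0.87 (standard error 0.56, adjusted P = 0.725 from limma) and its difference between changes 1.43 (adjusted P = 0.70), and the block changed no call of a member. Of 281 values of members under an alternative, 27 changed sign, all from values within 1 standard error of 0. The cause was not tested. On deposited tags, miR-320a had 0.03 for SH vs. SL, and miR-1224 -0.13 for SH vs. UH, -0.07 for S vs. U and -0.13 for the difference between changes. With a pseudocount of 0.5, miR-1224 had -0.13, -0.05 and -0.16 in the same order, and with total reads -0.03 for SH vs. UH and -0.07 for the difference. Leaving out each library gave -0.13 (without UL1 or UL2) to 0.87 for miR-877 in UH vs. UL, -0.62 to -0.09 for miR-320a, -0.66 to -0.09 for miR-484 and 0.40 to 1.0 for miR-1224. For SH vs. SL it gave -0.24 to -0.04 (miR-320a) and 0.63 to 1.23 (miR-484), and for SL vs. UL -0.65 to -0.12 (miR-320a) and -1.04 to -0.56 (miR-484). For SH vs. UH it gave -0.33 to 0.11 (miR-320a), 0.16 to 0.82 (miR-484) and -0.87 to 0.47 (miR-1224), for S vs. U -0.38 to -0.14 (miR-320a), -0.41 to 0.06 (miR-484) and -0.38 to 0.22 (miR-1224), and for the difference between changes -0.04 to 0.49 (miR-320a) and -0.89 to 0.45 (miR-1224). Over all miRNAs, the calls ranged from 2 to 10 for UH vs. UL (6 in the report's setting), 5 to 34 for SH vs. SL (11), 6 to 24 for SH vs. UH (12), 0 to 15 for SL vs. UL (5), 4 to 16 for S vs. U (13) and 4 to 21 for the difference (12). The 34, 24 and 21 were found when SH2, the shallowest library, was left out, and the 15 when SL2 was. SL vs. UL gave 3 calls with the replicate block. The likeness lists varied. By Pearson's r, miR-125a came 1, miR-23a 4 (0.62) and miR-23b-3p 10 in that of miR-320a. In that of miR-484, miR-185 came 2, miR-486 4 and miR-29c 5, and let-7g came 5 in that of miR-877. With total reads miR-185 came 2, miR-486 15 (rho 0.50), miR-23b-3p 4 and let-7g 5. Depth limits miR-877 and miR-1224, with at most 10 and 4 reads in a library.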
